A study of Mus musculus with 10 samples.

Results

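Cultures of mouse marrow progenitors with Meis1, whether introduced or read beside a fusion oncogene, were set against cultures that carried HoxA9 alone, to ask which transcripts set all of them apart. The 7 arrays on the first side were 3 clones immortalized by HoxA9 together with Meis1 (HoxA9+Meis1), 3 clones immortalized by the fusion NUP98-NSD1 and 1 culture immortalized by the fusion MLL-ENL, and the 3 arrays on the other side were 3 clones immortalized by HoxA9. These are all 10 samples of the series. Each array measured the RNA of 1 culture of primary marrow progenitors derived with stem cell factor and without GM-CSF, on the Affymetrix Mouse Genome 430 2.0 design, so all groups share the growth factor and differ in the oncogene. A group is a model of its oncogene only as far as a few clones grown in culture allow, and MLL-ENL rests on 1 array. The labels do not say whether clones came from separate animals, and p-values measure the spread between these cultures. The promoter that drives each oncogene is not given in the sources used here.

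HoxA9 is a homeobox transcription factor of primitive blood cells. Meis1 is a homeobox protein of the TALE class that binds DNA beside HoxA9 and Pbx proteins and shortens the time to leukaemia in mice that receive marrow with HoxA9. In NUP98-NSD1 a nucleoporin is fused to an enzyme that methylates histone H3 at lysine 36. MLL-ENL joins a part of the chromatin regulator MLL to a protein of transcription elongation. Both fusions are known for keeping Hox-A genes and Meis1 active in leukaemia. The same surface proteins, adhesion molecules and transcription factors that mark stem and early progenitor cells in marrow are often found in such leukaemias.

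The deposited values of the arrays share 1 scale: the mean signal trimmed by 2% at either end was 2500.01 to 2500.02 on each. The hybridization controls, 18 probe sets that read transcripts added to the samples, averaged 13.17 to 13.41 on the log2 scale in HoxA9+Meis1, 14.03 to 14.12 in NUP98-NSD1, 14.00 in MLL-ENL and 13.22 to 13.40 in HoxA9. The Actb 3 prime to 5 prime ratio, which reflects RNA integrity, was 1.18 to 1.43 in NUP98-NSD1 and MLL-ENL and 1.09 to 1.17 in the other arrays. For both fusions against HoxA9, the set of arrays by these controls and the oncogene cannot be told apart. HoxA9+Meis1 and HoxA9 overlap in these controls, and a difference that also appears between them is therefore given apart below. Signals above 369.318, the 40th percentile of all values, are called above the filter level. Of 8 markers of myeloid progenitors fixed for the check of the tissue, 8 were above that level on every HoxA9+Meis1, NUP98-NSD1 and MLL-ENL array and 7 on every HoxA9 array, where Cd34 was the exception. Summed signals of markers of neutrophils and of mast cells, basophils and eosinophils were highest in NUP98-NSD1. Those of 5 neutrophil genes were 7075.9 to 89555.5 in HoxA9+Meis1, 419139.0 to 904346.1 in NUP98-NSD1, 13861.6 in MLL-ENL and 13771.3 to 62752.9 in HoxA9. Outside NUP98-NSD1 these neutrophil sums overlapped between groups. The 7 mast cell, basophil and eosinophil markers summed to 12568.6 to 23399.9 in HoxA9+Meis1, 58263.9 to 231549.9 in NUP98-NSD1, 3394.9 in MLL-ENL and 5675.7 to 10155.5 in HoxA9. The part of these cells in the results below was not tested, and in such bulk RNA fewer cells of a type and less RNA per cell cannot be told apart.

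Whether the 7 arrays read Meis1 depends on the probe set. Of 3 Meis1 probe sets, 1 had signals of 572.5, 687.3 and 557.6 in HoxA9+Meis1, 6267, 5655 and 4214 in NUP98-NSD1 and 10160 in MLL-ENL, against 16.7, 27.9 and 20.6 in HoxA9. All 7 arrays lay above the filter level and all 3 HoxA9 arrays far below it. Set against the filter level, the mean over the 7 arrays was at least 5.86-fold higher (adjusted p = 5.8e-07 over all kept probe sets), and HoxA9+Meis1 alone was at least 1.58-fold higher (adjusted p = 3.0e-05). The probe set that represents Meis1 by the rule for genes had 744.9, 921.4 and 566.4 in HoxA9+Meis1, 1009, 807.5 and 591.4 in NUP98-NSD1, 706.9 in MLL-ENL and 819.5, 961.2 and 697.1 in HoxA9, with overlapping groups and a log2 difference of -0.12 (SE 0.25, adjusted p = 0.757). The remaining probe set gave -0.22 and also overlapped. The first probe set was singled out after its values had been seen, and which part of the transcript each of them reads was not used here.

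Hoxa9 was read in opposite ways by its own probe sets. In 1 of them, HoxA9+Meis1 had 91143, 89613 and 103499, NUP98-NSD1 6783, 6872 and 8481 and MLL-ENL 6478, against 27259, 43395 and 59375 in HoxA9, so that HoxA9 lay between the other groups. In the other, NUP98-NSD1 had 31804 to 36931 and MLL-ENL 35209, whereas HoxA9+Meis1 had 25.7 to 29.3 and HoxA9 25.9 to 50.8. Hoxa10 had 4324 to 11545 in NUP98-NSD1 and 7221 in MLL-ENL, against 124.7 to 396.5 in HoxA9+Meis1 and 271.7 to 408.8 in HoxA9. It rose over the 7 arrays (log2 2.15, adjusted p = 0.0042), and its other kept probe set gave -0.25. Hoxa7 had 338.8 to 1835, 2096, 117.0 to 148.2 and 106.1 to 138.0 in the same order. Its call over the 7 arrays (adjusted p = 0.037) was lost without any 1 HoxA9 clone. Neither Hoxa9 probe set, nor Hoxa10, Hoxa7 or Hoxa5 (log2 -0.12), separated the 7 arrays from the 3. Flt3, the receptor for the growth factor Flt3 ligand, also did not: it had 34997, 30939 and 23470 in HoxA9+Meis1, 3128, 4193 and 2227 in NUP98-NSD1 and 709.2 in MLL-ENL, against 1047, 701.7 and 1430 in HoxA9. The MLL-ENL array lay among the HoxA9 arrays, although the mean over the 7 arrays passed the test (log2 2.66, SE 0.24, adjusted p = 1.6e-04).

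**Figure D1:**
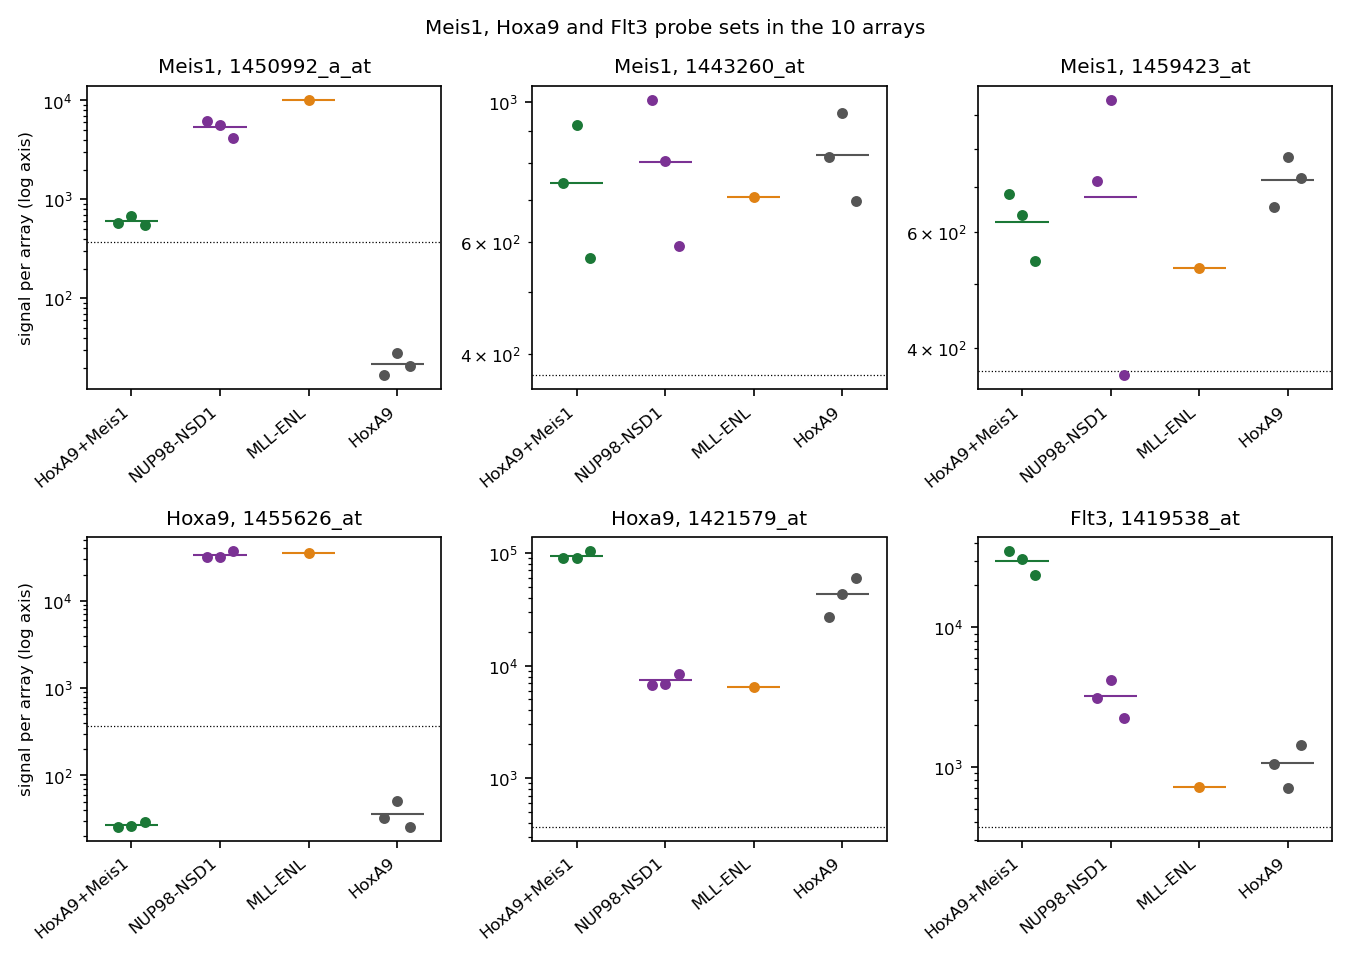
Signal per array on log axes for the 3 Meis1 probe sets, the 2 Hoxa9 probe sets and Flt3, with 1 point per array, a bar at each group mean and a dotted line at the filter level of 369.318. In the first panel Meis1 lies above the line on all 7 arrays and at 16.7 to 27.9 in HoxA9, the other Meis1 probe sets overlap, and Flt3 in MLL-ENL (709.2) lies within the HoxA9 range.

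Across 14233 genes, each represented by its brightest kept probe set, 624 (4.38%) were higher on all 7 arrays than on any HoxA9 array and 708 (4.97%) were lower on all 7 than on any HoxA9 array. Together they are 1332 genes (9.36%). This is a statement on the order of the arrays and carries no test. In limma's test of the mean over the 7 arrays against HoxA9, 1198 genes (8.42%) rose and 1378 (9.68%) fell at an adjusted p under 0.05. Of the separated genes, 541 of the 624 higher and 489 of the 708 lower passed that test. The split depends on the scaling. With every array shifted to a common median, 906 genes were separated higher and 204 lower, and 1261 rose and 368 fell in the test, which is 77.4% rises among calls in place of 46.5%. With quantile normalization the share was 46.4%. The median log2 difference over all genes was -0.11 as deposited and 0.05 with a common median.

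Among the separated genes, 283 of the higher and 194 of the lower ones were also called, in the same direction, between HoxA9+Meis1 and HoxA9, where the hybridization controls overlap. In that comparison 656 genes (4.61%) rose and 720 (5.06%) fell over all genes tested. Both comparisons use the same HoxA9 arrays, and the HoxA9+Meis1 arrays are in both, so a call in the second is not an independent repeat of the first. Genes that were separated, called over the 7 arrays and called the same way within HoxA9+Meis1 are named held genes here: 281 (1.97%) were higher and 186 (1.31%) lower. Their median log2 difference over the 7 arrays was 0.82 among the higher and -0.77 among the lower ones, and 117 and 65 of them differed at least 2-fold. These medians describe the choice of the genes and are not a test of it. A common median left 177 of the 281 and 33 of the 186 held, and quantile normalization left 242 and 170. Without HoxA9 clone 1, 2 or 3, the higher genes still held were 216, 185 and 202 of 281. The lower ones were 121, 90 and 112 of 186. Without HoxA9+Meis1 clone 1, 2 or 3, they were 179, 173 and 212 higher and 114, 107 and 150 lower. Leaving out 1 NUP98-NSD1 clone or MLL-ENL left 240 to 281 higher and 151 to 186 lower genes held. Averaging the kept probe sets of each gene left 167 higher and 125 lower genes held, and eBayes without trend left 163 higher and 113 lower. In a fit of 2 groups, which puts the differences between oncogenes into the error, 24 of the 53 held genes chosen to be named lost their call over the 7 arrays (adjusted p = 0.052 to 0.19). Of the genes below these are Aff3, Nkg7, Ctsc, Itga4, Pknox1, Runx3, Zfp36, Jun, Ccnd1, Ezh2, Rps6 and Sdc1 among the rises, and Slc36a4, Sdc2, Thbs1, Rnf128, Chst13, Gatm, Slc13a2, Sult1a1, Ifi209, Glis3 and Gbp3 among the falls. Hoxa10, Hoxa7, Flt3, Syk, Rps4x, Mpo, P2ry6, Stfa2l1, Pbx4, Vipr2 and Nenf, called over the 7 arrays but not held, lost the call in that fit as well (adjusted p = 0.12 to 0.41). Of the separated and called genes, 260 higher and 303 lower were not called in HoxA9+Meis1 against HoxA9.

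The clearest held gene was Erg, an Ets-family transcription factor needed to maintain haematopoietic stem cells. Its signal was 5730, 5966 and 7252 in HoxA9+Meis1, 8139, 8133 and 7079 in NUP98-NSD1 and 1478 in MLL-ENL, against 13.6, 10.9 and 8.61 in HoxA9. The HoxA9 arrays were all below the filter level, and the dimmest of the 7 arrays was 5.05 log2 units above the brightest of them, the widest gap of any held gene. Set against the filter level, the mean over the 7 arrays was at least 14.0-fold higher (log2 7.04, SE 0.16, adjusted p = 8.3e-09), and HoxA9+Meis1 was at least 15.7-fold higher (adjusted p = 3.6e-08). Such a fold is a lower bound, since the fitted value of a gene dim in HoxA9 moves with the offset added before the log, for Erg between 5.69 with an offset of 100 and 8.88 with an offset of 1. A second Erg probe set did not pass the filter.

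Cd34 and Cd93, surface proteins of progenitors, held as rises. Cd34, the sialomucin used to isolate haematopoietic progenitors, had 48216, 48720 and 50766 in HoxA9+Meis1, 32330, 29092 and 12432 in NUP98-NSD1 and 2723 in MLL-ENL, against 97.8, 93.9 and 1845 in HoxA9. HoxA9 clone 3 was far above the other HoxA9 clones, and the MLL-ENL array was only 0.55 log2 units above it. The log2 difference of the 7 arrays was 6.23 (SE 0.73, adjusted p = 6.2e-04), and it was 5.59, 5.57 and 7.52 without HoxA9 clone 1, 2 or 3. Cd93, a lectin-like receptor of early progenitors, had 52164, 54207 and 59990 in HoxA9+Meis1, 41254, 45057 and 46315 in NUP98-NSD1 and 32431 in MLL-ENL, against 5586, 5807 and 7487 in HoxA9. The 7 arrays lay within a narrow range of high signals, and the difference was 2.89 (SE 0.10, adjusted p = 1.9e-07) over the 7 arrays and 3.14 (SE 0.11, adjusted p = 4.6e-07) in HoxA9+Meis1. Of the 5 kept Cd93 probe sets, all 5 were called higher in both comparisons and 3 were separated.

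3 receptors were among the largest held rises. Gpr171, a G protein-coupled receptor, had 9031, 10002 and 5321 in HoxA9+Meis1, 4826, 4824 and 1401 in NUP98-NSD1 and 1486 in MLL-ENL, against 5.77, 31.8 and 12.2 in HoxA9. It was at least 10.6-fold higher in the 7 arrays (adjusted p = 1.5e-05) and at least 19.6-fold higher in HoxA9+Meis1 (adjusted p = 1.9e-05). Ltb4r1, the leukotriene B4 receptor of phagocytes, had 1684, 1611 and 848.6 in HoxA9+Meis1, 5528, 6193 and 16264 in NUP98-NSD1 and 2214 in MLL-ENL, against 23.9, 39.9 and 378.6 in HoxA9. The groups did not overlap, and the log2 difference of 4.74 (SE 0.59, adjusted p = 8.6e-04) was 5.64 without HoxA9 clone 3. Calcrl, which forms the receptors for calcitonin gene-related peptide and adrenomedullin, had 6482, 6040 and 6732 in HoxA9+Meis1, 17244, 16798 and 5819 in NUP98-NSD1 and 1256 in MLL-ENL, against 170.9, 421.7 and 151.5 in HoxA9 (log2 4.70, SE 0.37, adjusted p = 6.2e-05). Its other kept probe sets were not separated, with log2 differences of 0.75 and -0.19 that did not pass the test over the 7 arrays.

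Ctss, Wfdc17, S100a4 and Nkg7 were also among the largest held rises. Ctss, cathepsin S, a lysosomal protease of antigen-presenting cells, had 18951, 21811 and 14288 in HoxA9+Meis1, 17077, 19390 and 17539 in NUP98-NSD1 and 22329 in MLL-ENL, against 372.7, 1007 and 1062 in HoxA9. The 7 arrays were alike within 2-fold, and the difference was 4.59 (SE 0.27, adjusted p = 1.4e-05) over them and 4.55 (SE 0.32, adjusted p = 3.3e-05) in HoxA9+Meis1. Of 19 monocyte and macrophage genes measured, Ctss was the 1 separated member, and 5 rose and 1 fell over the 7 arrays, where 8.42% of all genes rose and 9.68% fell. In HoxA9+Meis1, 4 rose and 0 fell, where 4.61% and 5.06% of all genes did. The summed signals of 5 monocyte or macrophage markers, Ctss not among them, were 19957.8 to 55166.0 in HoxA9+Meis1, 26456.6 to 30949.4 in NUP98-NSD1 and 58601.0 in MLL-ENL, against 18462.1 to 27808.3 in HoxA9, and their part in these rises was not tested. Wfdc17, a secreted WAP-domain protein of macrophages, had 11484, 18943 and 20285 in HoxA9+Meis1, 5029, 8322 and 8689 in NUP98-NSD1 and 11927 in MLL-ENL, against 74.9, 163.4 and 499.2 in HoxA9 (log2 5.62, SE 0.41, adjusted p = 4.9e-05; 6.25 without HoxA9 clone 3). S100a4, a calcium-binding protein, had 11404, 9630 and 2611 in HoxA9+Meis1, 10878, 12453 and 11594 in NUP98-NSD1 and 13640 in MLL-ENL, against 106.1, 561.6 and 721.5 in HoxA9 (log2 4.57, SE 0.55, adjusted p = 6.9e-04; 3.81 without HoxA9 clone 1). Nkg7, a membrane protein of cytotoxic granules, was 15346 to 27145 in NUP98-NSD1 but only 618.8 to 1216 in HoxA9+Meis1 and 508.2 in MLL-ENL, against 111.6 to 127.1 in HoxA9. Its rise in HoxA9+Meis1 was at least 2.22-fold (adjusted p = 5.9e-04), and the summed neutrophil and mast cell markers given above are highest in the same NUP98-NSD1 arrays.

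Ell2, Aff3 and Klhl6 complete the largest held rises. Ell2, an elongation factor of RNA polymerase II, had 2327, 2570 and 3193 in HoxA9+Meis1, 5001, 4154 and 2779 in NUP98-NSD1 and 365.0 in MLL-ENL, against 71.0, 27.6 and 81.8 in HoxA9. Its MLL-ENL signal was just under the filter level, and the 7 arrays were at least 5.99-fold higher on average (adjusted p = 1.4e-05). Aff3, of the AFF family of elongation complex scaffolds, had 5551, 6815 and 4758 in HoxA9+Meis1, 4952, 4478 and 2033 in NUP98-NSD1 and 163.8 in MLL-ENL, against 110.7, 125.7 and 93.3 in HoxA9. MLL-ENL and HoxA9 were both below the filter level, and the mean over the 7 arrays was at least 7.19-fold higher (adjusted p = 2.1e-05). The fitted log2 difference of 4.35, no bound itself, was 4.999 without MLL-ENL and 2.44 with the mean of the probe sets. The other kept Aff3 probe set was not separated and did not pass the test (log2 0.53, adjusted p = 0.307). Klhl6, an adaptor of a cullin ubiquitin ligase in lymphocytes, had 8311, 8357 and 5290 in HoxA9+Meis1, 9741, 9716 and 12721 in NUP98-NSD1 and 3028 in MLL-ENL, against 147.4, 104.3 and 1982 in HoxA9. HoxA9 clone 3 was again the highest of its group, and the difference of 4.36 (SE 0.67, adjusted p = 0.0023) was 3.65 without clone 2 and 5.59 without clone 3. Plek, pleckstrin, a protein kinase C substrate of platelets and leukocytes, had 11042, 10348 and 15790 in HoxA9+Meis1, 13192, 14085 and 8166 in NUP98-NSD1 and 7303 in MLL-ENL, against 685.4, 1445 and 1255 in HoxA9 (log2 3.32, SE 0.25, adjusted p = 5.0e-05). All 3 of its kept probe sets separated the 7 arrays from the 3. Ms4a4b and Clec10a, a galactose-binding lectin, completed the held rises with the widest gaps, and both were below the filter level on every HoxA9 array (at least 3.08-fold and 2.76-fold higher in the 7 arrays).

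**Figure D2:**
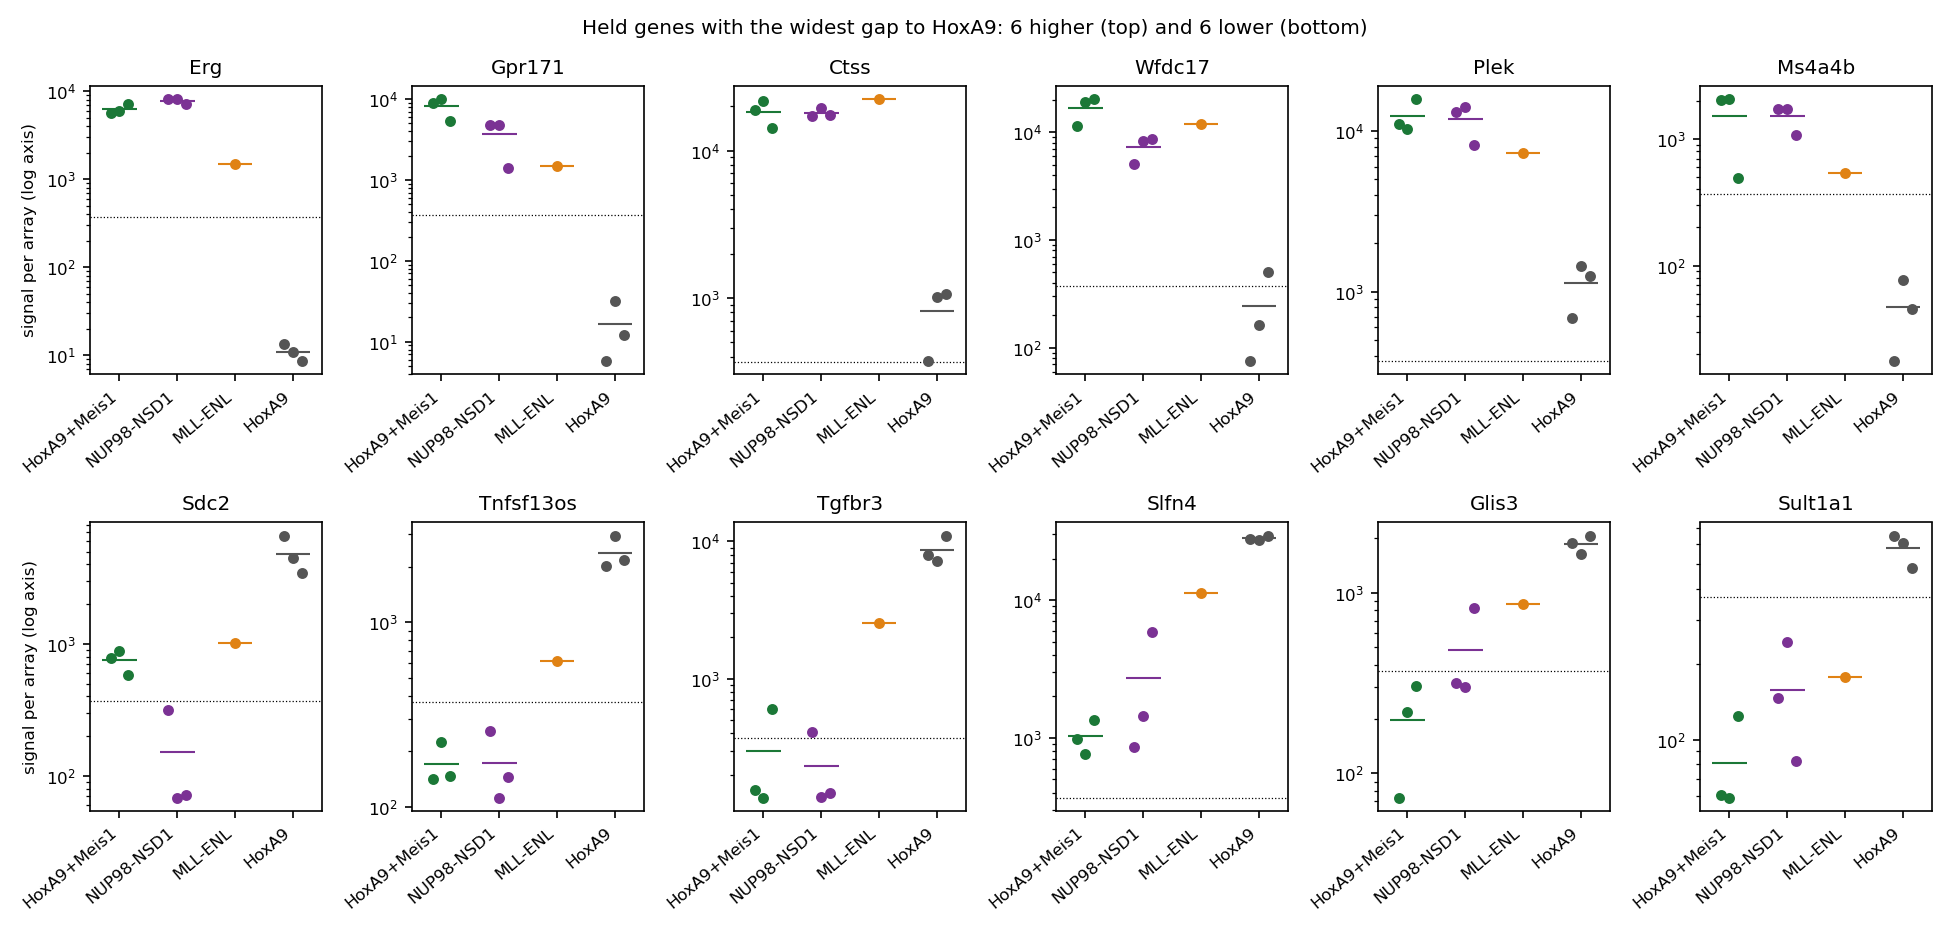
Signal per array on log axes for the 6 held genes each way with the widest gap between the nearest arrays of the 2 sides, with 1 point per array, a bar at each group mean and a dotted line at the filter level of 369.318 where it falls in the range. Erg is at 1478 or more on all 7 arrays and at 13.6 or less in HoxA9, and among the lower genes MLL-ENL is the array nearest to HoxA9 in Sdc2, Tnfsf13os, Tgfbr3, Slfn4 and Glis3.

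Slc36a4 and Tgfbr3 had the largest held falls. Slc36a4, an amino acid transporter, had 107.7, 45.1 and 13.6 in HoxA9+Meis1, 345.6, 510.9 and 160.6 in NUP98-NSD1 and 5557 in MLL-ENL, against 7462, 7162 and 7790 in HoxA9. MLL-ENL stayed close to HoxA9 (log2 difference -0.42) while the other 6 arrays were far below, and the log2 difference over the 7 arrays was -4.79 (SE 0.39, adjusted p = 8.7e-05), or -5.52 without MLL-ENL. HoxA9 was at least 18.7-fold higher than HoxA9+Meis1, where no array reached the filter level. Tgfbr3, betaglycan, which presents TGF-beta to its signalling receptors, had 153.7, 136.2 and 604.4 in HoxA9+Meis1, 411.8, 138.3 and 146.7 in NUP98-NSD1 and 2558 in MLL-ENL, against 7930, 7239 and 11027 in HoxA9 (log2 -4.61, SE 0.45, adjusted p = 2.6e-04). In HoxA9+Meis1 it fell by 4.99 (SE 0.53, adjusted p = 4.1e-04), by 5.61 without HoxA9+Meis1 clone 3 and by 2.98 with the mean of the probe sets. A dimmer Tgfbr3 probe set was also separated lower without passing the test.

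Sdc2, the heparan sulfate proteoglycan syndecan-2, had 783.6, 880.6 and 584.6 in HoxA9+Meis1, 313.8, 68.5 and 71.4 in NUP98-NSD1 and 1013 in MLL-ENL, against 6621, 4454 and 3436 in HoxA9. It had the widest gap of the held falls, 1.73 log2 units, and fell by 3.54 (SE 0.40, adjusted p = 5.8e-04) over the 7 arrays and by 2.61 (SE 0.47, adjusted p = 0.0071) in HoxA9+Meis1. Of its 4 kept probe sets, 3 were separated and called lower. Thbs1, thrombospondin-1, a matrix protein that activates latent TGF-beta, had 945.0, 1865 and 8415 in HoxA9+Meis1, 9079, 9755 and 11851 in NUP98-NSD1 and 14863 in MLL-ENL, against 22385, 46734 and 47589 in HoxA9 (log2 -2.64, SE 0.53, adjusted p = 0.0084). HoxA9+Meis1 clone 3 was well above the other clones of its group, and the fall in HoxA9+Meis1, 3.88 on the log2 scale, was 4.76 without that clone and 3.20 without clone 1. The second Thbs1 probe set was separated and called as well.

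Slfn4, a schlafen gene of myeloid cells, had 978.8, 768.9 and 1353 in HoxA9+Meis1, 855.6, 1435 and 5854 in NUP98-NSD1 and 11177 in MLL-ENL, against 27647, 27408 and 29383 in HoxA9 (log2 -3.87, SE 0.46, adjusted p = 6.5e-04). The 3 HoxA9 clones were close to each other and the 7 arrays spread widely beneath them. Rnf128, an E3 ubiquitin ligase, had 162.2, 81.1 and 370.6 in HoxA9+Meis1, 1665, 884.4 and 2188 in NUP98-NSD1 and 3343 in MLL-ENL, against 9038, 6332 and 6223 in HoxA9 (log2 -3.30, SE 0.38, adjusted p = 6.2e-04). Chst13, a chondroitin 4-sulfotransferase, had 138.0, 299.2 and 923.9 in HoxA9+Meis1, 2368, 2712 and 5607 in NUP98-NSD1 and 3329 in MLL-ENL, against 13292, 8784 and 11724 in HoxA9 (log2 -3.08, SE 0.46, adjusted p = 0.0019). In both genes HoxA9+Meis1 was the lowest group and MLL-ENL and NUP98-NSD1 lay between it and HoxA9. Galnt7, an enzyme that starts mucin-type O-glycans, was lower in all 3 of its probe sets (log2 -1.68, SE 0.13, adjusted p = 5.0e-05), with 3076 to 4063 in HoxA9+Meis1, 6005 to 8315 in NUP98-NSD1 and 6234 in MLL-ENL, against 15236 to 18510 in HoxA9.

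Tnfsf13os, a transcript from the opposite strand of Tnfsf13, fell by 3.35 (SE 0.32, adjusted p = 2.3e-04), with 112.0 to 257.0 in HoxA9+Meis1 and NUP98-NSD1 and 615.1 in MLL-ENL, against 2024 to 2953 in HoxA9. Ifi209, an interferon-inducible gene, fell by 2.46 (SE 0.32, adjusted p = 0.0011), and Glis3, a zinc finger transcription factor, by 2.39 (SE 0.42, adjusted p = 0.0044). Gatm, the first enzyme of creatine synthesis, was separated by 0.14 log2 units, with 180.5, 58.2 and 6473 in HoxA9+Meis1, 1274, 1559 and 1508 in NUP98-NSD1 and 15924 in MLL-ENL, against 18896, 17578 and 18593 in HoxA9. Its call (log2 -3.82, SE 1.00, adjusted p = 0.027) was lost without any 1 of the HoxA9 clones (adjusted p = 0.076 to 0.087), without HoxA9+Meis1 clone 1 and without NUP98-NSD1 clone 1 or 2, and the difference was -3.18 without HoxA9+Meis1 clone 2 and -4.42 without MLL-ENL. Its call in HoxA9+Meis1 (log2 -5.20, adjusted p = 0.021) was also lost without any 1 of the HoxA9 clones (adjusted p = 0.052 to 0.066) and without HoxA9+Meis1 clone 1 (log2 -4.58, adjusted p = 0.087) or 2 (log2 -3.97, adjusted p = 0.069), and the difference was -7.05 without clone 3. The calls of Slc13a2, a dicarboxylate transporter, in HoxA9+Meis1 and of Sult1a1, a sulfotransferase, were likewise lost without single clones: for Slc13a2 HoxA9 clone 2 or 3, any of the HoxA9+Meis1 clones or NUP98-NSD1 clone 1 (adjusted p = 0.053 to 0.17), for Sult1a1 HoxA9 clone 1 or 2 in both comparisons (adjusted p = 0.057 to 0.065) and HoxA9+Meis1 clone 1 or 2 in HoxA9+Meis1 (adjusted p = 0.054 each).

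**Figure D3:**
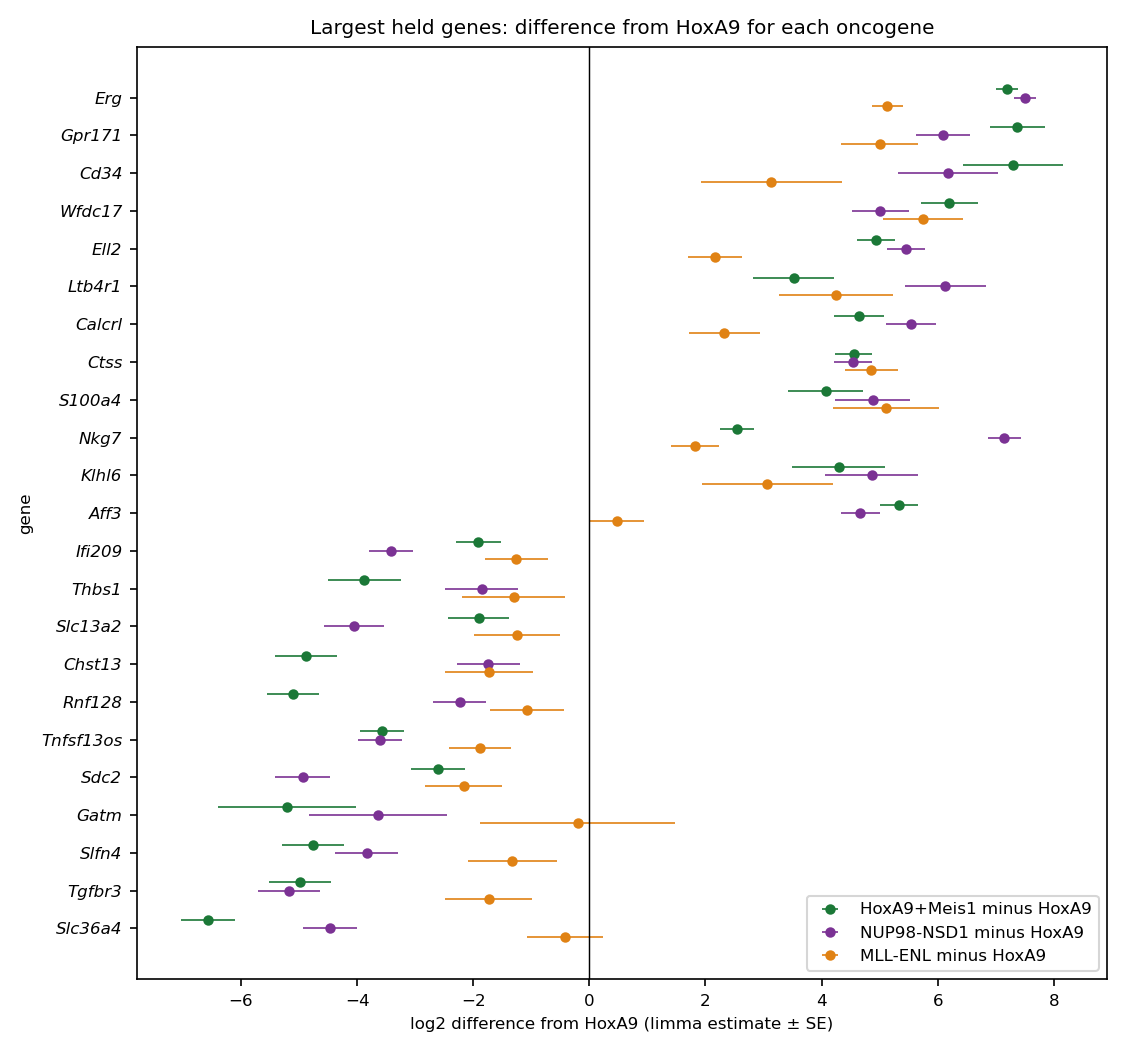
Log2 difference from HoxA9 of HoxA9+Meis1, NUP98-NSD1 and MLL-ENL for the 12 largest held rises and 11 of the 12 largest held falls, as limma estimates with bars of 1 SE. The points of MLL-ENL lie nearest to 0 for most genes, at -0.42 for Slc36a4 and -0.20 for Gatm, in a set chosen by a call in HoxA9+Meis1.

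The sequences upstream of the named held genes were read to show where the core motif of Meis proteins stands. Of the 31 held genes with the largest differences or the widest gaps, 24 had a promoter entry from RefSeq on GRCm38.p6, and 4 held the letters TGACAG on either strand in the 250 bases before a start. Of these, 3 are shown because their levels are described above: Erg (the third of its 3 starts), Klhl6 and Slc36a4. None of the 24 held TGATTNAT, a core for a Pbx protein beside a Hox protein, on either strand. The motifs do not overlap each other. The 3 windows follow, 5′ to 3′ on the gene's strand, with TGACAG or its reverse complement in capitals, at chr16:95459349-95459598 (minus strand, Erg), chr16:19983050-19983299 (minus strand, Klhl6) and chr9:15709488-15709737 (plus strand, Slc36a4).
Erg: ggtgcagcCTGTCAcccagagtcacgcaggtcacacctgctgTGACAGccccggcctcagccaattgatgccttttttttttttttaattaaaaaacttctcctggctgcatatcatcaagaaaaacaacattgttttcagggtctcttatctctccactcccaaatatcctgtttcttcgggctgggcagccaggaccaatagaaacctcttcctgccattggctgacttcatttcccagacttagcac
Klhl6: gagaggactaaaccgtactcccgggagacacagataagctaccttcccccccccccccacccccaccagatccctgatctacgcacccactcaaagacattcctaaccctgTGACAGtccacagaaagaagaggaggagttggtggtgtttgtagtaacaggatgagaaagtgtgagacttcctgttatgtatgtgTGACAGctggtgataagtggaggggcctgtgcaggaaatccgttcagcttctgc
Slc36a4: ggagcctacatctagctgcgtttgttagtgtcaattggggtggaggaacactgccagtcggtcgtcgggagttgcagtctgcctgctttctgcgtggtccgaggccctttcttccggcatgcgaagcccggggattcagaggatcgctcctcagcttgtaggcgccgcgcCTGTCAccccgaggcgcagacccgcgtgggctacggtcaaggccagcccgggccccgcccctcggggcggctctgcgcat
The letters occur 2 times upstream of Erg and of Klhl6 and 1 time upstream of Slc36a4, thus before genes that rose and genes that fell. TGACAG stood before 15.4% of the held higher genes with an entry (35 of 228) and 16.9% of the held lower ones (25 of 148), against 16.9% of all genes tested with an entry (1933 of 11453). TGATTNAT stood before 2.63%, 3.38% and 1.86% in the same order of sets. Of all promoter windows of this length, 15.9% hold TGACAG and 2.82% hold TGATTNAT. A match to such letters is a description of the window and not a measured binding site.

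Of 22 measured genes on a list of Meis1-HoxA9 leukaemia genes, 10 rose and 1 fell over the 7 arrays, where 18.1% of all genes were called, and 10 rose and 0 fell in HoxA9+Meis1, where 9.67% were called. Their median log2 difference was 0.28 and 0.63, against -0.11 and -0.02 over all genes. The list was drawn up from knowledge of such leukaemias, with earlier results of these data known. Erg, Cd34 and Lmo2 held. Lmo2, a LIM-domain partner of Tal1 and Gata factors, had 33392, 29929 and 35604 in HoxA9+Meis1, 30108, 33338 and 37574 in NUP98-NSD1 and 58090 in MLL-ENL, against 18574, 18765 and 18690 in HoxA9 (log2 0.94, SE 0.08, adjusted p = 1.0e-04). The HoxA9 clones were nearly equal, and each of the 7 arrays was well above them. Syk, a tyrosine kinase, was separated and rose over the 7 arrays (log2 0.54) without a call in HoxA9+Meis1 (log2 0.19, adjusted p = 0.302). Spns2, Cyfip2, Ccl3, Bcl2, Mef2c and Flt3 passed the test in both comparisons, yet at least 1 of the 7 arrays overlapped HoxA9.

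Of 18 stem and progenitor genes measured, 7 rose and 1 fell over the 7 arrays and 6 rose and 1 fell in HoxA9+Meis1, where 18.1% and 9.67% of all genes were called, and Cd34, Cd93 and Lmo2 held. Cd48, a signalling lymphocyte receptor ligand, Cd27, a TNF receptor, and Angpt1, angiopoietin-1, rose in both comparisons (log2 5.07, 4.07 and 3.61 over the 7 arrays) without separation. For Angpt1 the MLL-ENL signal was 51.0, within the 50.8 to 404.0 of HoxA9, and for Cd48 it was HoxA9 clone 1, at 2862, that lay among the 7 arrays. Kit, the receptor for stem cell factor, did not pass the test in either comparison, with 18561, 16810 and 17906 in HoxA9+Meis1, 29049, 27221 and 17046 in NUP98-NSD1 and 14242 in MLL-ENL, against 18944, 17607 and 14446 in HoxA9. Myb, a regulator of progenitor growth, and Sox4, an SRY-related factor, did not pass the test over the 7 arrays either, although Sox4 did without NUP98-NSD1 clone 3 (log2 0.51, adjusted p = 0.0023), and both have further probe sets that passed it. Sox4 had 69322, 72304 and 61385 in HoxA9+Meis1, 51038, 47204 and 19188 in NUP98-NSD1 and 14146.5 in MLL-ENL, against 29931, 34772 and 34061 in HoxA9. Its rise in HoxA9+Meis1 (log2 1.04) had an adjusted p of 0.054. With the HoxA9+Meis1 and HoxA9 arrays fitted alone the adjusted p was 7.6e-04, and without NUP98-NSD1 clone 3 it was 1.5e-04.

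Haematopoietic transcription factors had 19 rises and 4 falls among 39 measured over the 7 arrays, where 8.42% of all genes rose and 9.68% fell, and 9 and 4 in HoxA9+Meis1, where 4.61% rose and 5.06% fell. With a common median the falls over the 7 arrays were 0 and the rises again 19. Erg, Lmo2, Ikzf1, Runx3 and Irf5 held. Ikzf1, Ikaros, a zinc finger factor of early lymphoid development, had 26582, 25470 and 26108 in HoxA9+Meis1, 21109, 21735 and 21895 in NUP98-NSD1 and 22369 in MLL-ENL, against 13288, 12384 and 13500 in HoxA9 (log2 0.85, SE 0.06, adjusted p = 3.0e-05). It varied little within either side. Runx3, a Runt-domain factor, had 3564, 4937 and 4747 in HoxA9+Meis1, 6415, 5307 and 5576 in NUP98-NSD1 and 3344 in MLL-ENL, against 2568, 2735 and 2526 in HoxA9, and Irf5, an interferon regulatory factor, had 1643 to 3562 over the 7 arrays against 908.3 to 1061 in HoxA9. Without HoxA9+Meis1 clone 2 the call of Runx3 in HoxA9+Meis1 was lost (adjusted p = 0.051). Both had another kept probe set that was not separated, and that of Irf5 was called lower over the 7 arrays (log2 -0.99, adjusted p = 0.028). Gfi1, a transcriptional repressor, and Cebpb, a transcriptional activator, are both factors of the granulocyte lineage. They fell over the 7 arrays by 0.65 and 0.49 and in HoxA9+Meis1 by 1.73 and 1.22, without separation. Among TALE cofactors, Pknox1, which also pairs with Pbx proteins, held, with 9042, 9088 and 9617 in HoxA9+Meis1, 6526, 6904 and 8703 in NUP98-NSD1 and 10535 in MLL-ENL, against 5288, 5347 and 5125 in HoxA9 (log2 0.69, SE 0.10, adjusted p = 0.0014).

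Adhesion molecules contributed 10 rises and 2 falls among 23 integrins, selectins and tetraspanins over the 7 arrays, and 6 and 2 in HoxA9+Meis1, beside 18.1% and 9.67% of all genes called. With a common median the counts were 9 and 0 over the 7 arrays. Itga4 and Itgb7, the chains of the alpha4 beta7 integrin that binds MAdCAM-1, both held. Itgb7 had 10330, 7513 and 5215 in HoxA9+Meis1, 3014, 4331 and 2579 in NUP98-NSD1 and 975.6 in MLL-ENL, against 163.2, 299.9 and 557.2 in HoxA9 (log2 3.54, SE 0.33, adjusted p = 2.0e-04). Itga4 had 28596, 28803 and 22887 in HoxA9+Meis1, 20212, 19005 and 14029 in NUP98-NSD1 and 15692 in MLL-ENL, against 8804, 11966 and 10725 in HoxA9 (log2 0.98, SE 0.14, adjusted p = 0.0014), and its 4 kept probe sets were all separated. Both chains were highest in HoxA9+Meis1. Selplg, the P-selectin ligand of leukocytes, had 20150 to 27014 in HoxA9+Meis1, 16044 to 19915 in NUP98-NSD1 and 17334 in MLL-ENL, against 8780 to 11015 in HoxA9 (log2 1.05, SE 0.12, adjusted p = 5.8e-04). Itgav, the alpha chain of vitronectin receptors, was the held fall of the list, with 7158 to 9987 over the 7 arrays against 11592 to 11951 in HoxA9 (log2 -0.49, SE 0.07, adjusted p = 0.0017).

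Among 23 TGF-beta receptors and heparan sulfate proteoglycans, 5 rose and 3 fell over the 7 arrays, where 18.1% of all genes were called, and 1 and 3 in HoxA9+Meis1, where 9.67% were. Of the 23 genes, 15 were not called over the 7 arrays and 19 were not called in HoxA9+Meis1. The falls were Tgfbr3, Sdc2 and Acvr2a, an activin receptor, in both comparisons. Acvr2a had 806.2, 667.8 and 784.6 in HoxA9+Meis1, 535.0, 510.6 and 489.9 in NUP98-NSD1 and 776.8 in MLL-ENL, against 1516, 1944 and 1481 in HoxA9 (log2 -1.31, SE 0.19, adjusted p = 0.0019), although its call in HoxA9+Meis1 was lost without HoxA9 clone 2 (adjusted p = 0.083) and without HoxA9+Meis1 clone 2 (adjusted p = 0.063). Sdc1, syndecan-1, a relative of Sdc2, moved the other way, with 1453, 7245 and 1191 in HoxA9+Meis1, 2410, 2640 and 715.4 in NUP98-NSD1 and 1663 in MLL-ENL, against 339.5, 289.8 and 558.4 in HoxA9. HoxA9+Meis1 clone 2 stood far above the others, and the call in HoxA9+Meis1 (log2 2.52, adjusted p = 0.043) was lost without any 1 of the HoxA9 clones (adjusted p = 0.070 to 0.13), without HoxA9+Meis1 clone 1 (adjusted p = 0.065) or 2 (log2 1.71, adjusted p = 0.12) and without NUP98-NSD1 clone 1 or 2. Over the 7 arrays its call was lost without HoxA9 clone 1 or 2 (adjusted p = 0.074 and 0.097). Among cytokine receptors, Ifngr1, a chain of the interferon gamma receptor, was the held member and fell by 1.19 over the 7 arrays (SE 0.15, adjusted p = 0.0010), with 11233 to 13781 in HoxA9+Meis1, 17231 to 22630 in NUP98-NSD1 and 22568 in MLL-ENL, against 27495 to 43760 in HoxA9. Gbp3, a guanylate-binding protein that responds to interferon gamma, also held and fell by 1.70 (SE 0.14, adjusted p = 8.5e-05). It had 3243 to 4168 in HoxA9+Meis1, 1234 to 1807 in NUP98-NSD1 and 7272 in MLL-ENL, against 8489 to 9901 in HoxA9. Of 21 interferon response genes measured, 3 rose and 2 fell over the 7 arrays, and 1 rose and 4 fell in HoxA9+Meis1. For 25 cytokine and growth factor receptors these counts were 6 and 3, and 4 and 4. In the same comparisons 18.1% and 9.67% of all genes were called.

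**Figure D4:**
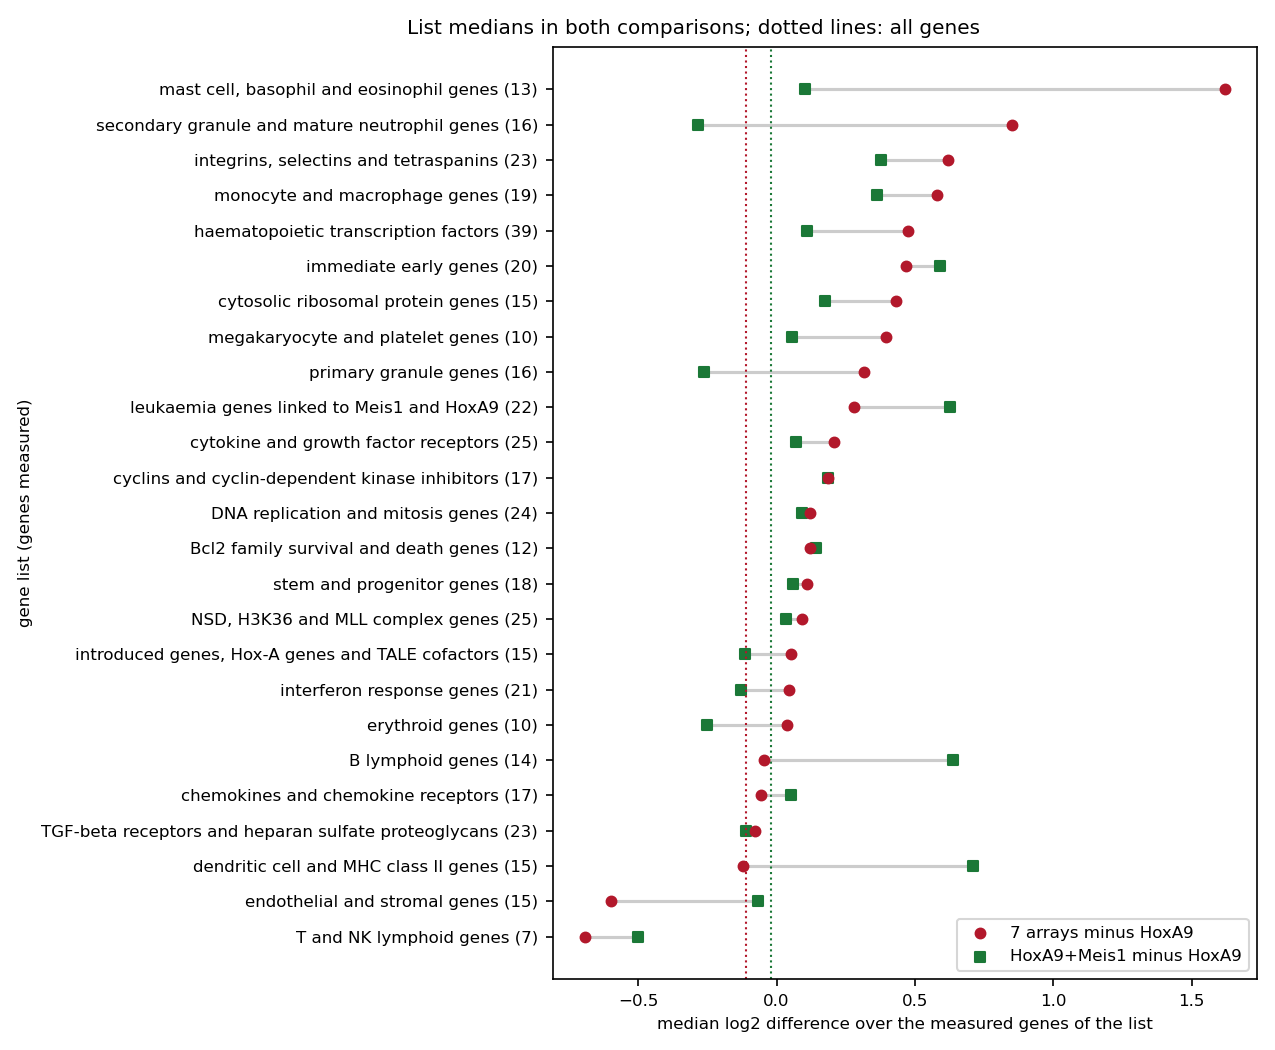
Median log2 difference over the measured genes of each of 25 gene lists, for the 7 arrays minus HoxA9 (circles) and for HoxA9+Meis1 minus HoxA9 (squares), with dotted lines at the medians of all genes (-0.11 and -0.02). The mast cell list is at 1.62 over the 7 arrays and 0.10 in HoxA9+Meis1, and the list of leukaemia genes is at 0.28 and 0.63.

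Of 16 primary granule genes, 7 rose and 4 fell over the 7 arrays (5 and 8 with quantile normalization, which turns the list's median from 0.32 to -0.14), while 2 rose and 5 fell in HoxA9+Meis1. For these lists of granule and mast cell genes, the shares of all genes were 8.42% rising and 9.68% falling over the 7 arrays, and 4.61% and 5.06% in HoxA9+Meis1. Nkg7 and Ctsc, the cathepsin that activates granule serine proteases, held as rises and Clec5a, a lectin receptor of myeloid cells, as a fall. Clec5a had 6736, 3597 and 2892 in HoxA9+Meis1, 2951, 4674 and 6224 in NUP98-NSD1 and 7513 in MLL-ENL, against 12990, 13159 and 14891 in HoxA9 (log2 -1.55, SE 0.26, adjusted p = 0.0038). Elane, neutrophil elastase, had 13902 to 25137 in HoxA9+Meis1, 147012 to 199729 in NUP98-NSD1 and 198245 in MLL-ENL, against 106958 to 116367 in HoxA9, so that HoxA9 lay between HoxA9+Meis1 and the fusions. Its fusion and HoxA9 signals are near the top of the signal range. The highest value was 225137 to 268316 on the fusion arrays and 138637 to 149785 on the HoxA9 arrays. The part of this in the order of HoxA9 and the fusions was not tested. Of 16 secondary granule genes 5 rose over the 7 arrays and 2 rose and 2 fell in HoxA9+Meis1, with Mmp8, neutrophil collagenase, the held member (2260 to 11065 over the 7 arrays against 377.3 to 830.6 in HoxA9). All 13 mast cell, basophil and eosinophil genes measured failed to separate: 5 rose over the 7 arrays and 0 changed in HoxA9+Meis1, and their median was 4.11 in NUP98-NSD1, 0.02 in MLL-ENL and 0.10 in HoxA9+Meis1 as differences from HoxA9.

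Among genes of the cell cycle, survival and stress, Ccnd1, cyclin D1, had 7060, 10248 and 2221 in HoxA9+Meis1, 3960, 3186 and 3568 in NUP98-NSD1 and 1826 in MLL-ENL, against 1050, 1304 and 1190 in HoxA9 (log2 1.70, SE 0.37, adjusted p = 0.012). Its call in HoxA9+Meis1 (log2 2.18) was lost without HoxA9+Meis1 clone 1 (adjusted p = 0.053), and the difference was 2.82 without clone 3. Another kept Ccnd1 probe set was not separated, with 1088 in MLL-ENL against 1469 to 1603 in HoxA9, and did not pass the test over the 7 arrays (log2 0.93, adjusted p = 0.107). Cdkn1a, the p21 inhibitor of cyclin-dependent kinases, had 4450 to 7320 over the 7 arrays against 1474 to 2999 in HoxA9 (log2 1.34, SE 0.20, adjusted p = 0.0021). Bbc3, the p53 target Puma, was the held member of the Bcl2 family (log2 0.86, SE 0.15, adjusted p = 0.0047), and its call in HoxA9+Meis1 was lost without HoxA9 clone 3 (adjusted p = 0.060) or HoxA9+Meis1 clone 3 (adjusted p = 0.057). Of 20 immediate early genes, 7 rose and 1 fell over the 7 arrays and 4 rose and 1 fell in HoxA9+Meis1, where 18.1% and 9.67% of all genes were called. Zfp36, tristetraprolin, which speeds the decay of cytokine messages, had 7305, 7683 and 8345 in HoxA9+Meis1, 2684, 3688 and 3960 in NUP98-NSD1 and 3295 in MLL-ENL, against 1093, 1911 and 2144 in HoxA9, and Jun, an AP-1 subunit, had 1911 to 5675 over the 7 arrays against 987.2 to 1840 in HoxA9. Of 24 DNA replication and mitosis genes, 7 were separated higher, where 4.38% of all genes were. Over the 7 arrays 6 of the 24 rose, 1 fell and 17 were not called, where 8.42% of all genes rose and 9.68% fell. In HoxA9+Meis1 3 rose and 21 were not called, where 4.61% of all genes rose and 5.06% fell. With a common median 1 rose in HoxA9+Meis1, and with quantile normalization 2 rose and 1 fell. Mcm2 and Mcm3, subunits of the replicative helicase, held. The second kept probe set of Mcm2 was not separated (log2 0.05).

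All 15 cytosolic ribosomal protein genes measured rose over the 7 arrays, where 8.42% of all genes did, and 11 were separated, with a median log2 difference of 0.43, but in HoxA9+Meis1 the median was 0.18 and 1 gene, Rps6, passed the test. With quantile normalization the median over the 7 arrays was 0.00, with 1 rise and 1 fall. Rps4x had 121714 to 126219 in HoxA9+Meis1, 185776 to 203159 in NUP98-NSD1 and 183966 in MLL-ENL, against 105667 to 111870 in HoxA9, and Mpo, myeloperoxidase, had 145387 to 151814 in HoxA9+Meis1, 196759 to 237929 in NUP98-NSD1 and 221677 in MLL-ENL, against 126200 to 142660 in HoxA9. Both are near the top of the signal range, whose highest value was 225137 to 268316 on the fusion arrays and 138637 to 162300 on the others. Neither was called in HoxA9+Meis1 against HoxA9, and with quantile normalization the difference of Mpo was -0.01 over the 7 arrays and -0.02 in HoxA9+Meis1. The call of Rps6 in HoxA9+Meis1 (log2 0.62, adjusted p = 0.038) was lost without HoxA9 clone 2 or 3, without any of the HoxA9+Meis1 clones or without NUP98-NSD1 clone 2 (adjusted p = 0.057 to 0.14), and that of Ezh2, the H3 lysine 27 methyltransferase, without HoxA9 clone 2 or 3 or HoxA9+Meis1 clone 1 or 2 (adjusted p = 0.056 to 0.087).

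Separated genes that were called over the 7 arrays but not within HoxA9+Meis1 are described by some of their largest members. Csrnp1, Lifr and F2rl3, all dim in HoxA9, also rose. Nckap5, the largest of these falls (log2 -3.27), Soga1, Dysf and Ube2cbp also fell. Each of these lost its call over the 7 arrays in the fit of 2 groups (adjusted p = 0.066 to 0.20). All but Csrnp1 and Soga1 also lost it without single HoxA9 clones. P2ry6, a receptor for UDP, had 699.6, 729.6 and 732.6 in NUP98-NSD1 and 351.9 in MLL-ENL, but 61.3, 90.7 and 56.0 in HoxA9+Meis1, against 45.1, 34.2 and 30.9 in HoxA9. Stfa2l1, a stefin, had 1081, 530.6 and 175.1 in HoxA9+Meis1, 3306, 6739 and 98152 in NUP98-NSD1 and 205.9 in MLL-ENL, against 16.3, 137.3 and 26.6 in HoxA9, all 3 below the filter level. The 7 arrays were at least 4.56-fold higher on average (adjusted p = 0.0097). NUP98-NSD1 clone 3 was far above the rest, and without it the fitted log2 difference, 4.55 with all arrays, was 3.59 and the comparison of HoxA9+Meis1 with HoxA9 passed the test (adjusted p = 0.037, against 0.183 with that clone). Pbx4, a Pbx-family partner of Hox proteins, had 728.3, 446.6 and 109.1 in HoxA9+Meis1, 152.7, 588.7 and 236.2 in NUP98-NSD1 and 322.2 in MLL-ENL, against 52.9, 46.7 and 49.7 in HoxA9. Its rise over the 7 arrays (adjusted p = 0.039), between levels mostly below the filter, came with an adjusted p of 0.085 in HoxA9+Meis1 that was 0.026 without HoxA9+Meis1 clone 3, and its call over the 7 arrays was lost without any 1 of the HoxA9 clones, HoxA9+Meis1 clone 1 or 2 or NUP98-NSD1 clone 2 (adjusted p = 0.060 to 0.11). Vipr2, a receptor for vasoactive intestinal peptide, had 131.5, 33.1 and 138.7 in NUP98-NSD1 and 23.9 in MLL-ENL, but 404.2, 861.5 and 733.4 in HoxA9+Meis1, against 1040, 968.9 and 869.2 in HoxA9 (log2 -2.13, SE 0.41, adjusted p = 0.0071), a gap of 0.01 log2 units. Nenf, a secreted haem-binding protein, had 724.2, 860.9 and 1482 in HoxA9+Meis1, 100.8, 228.2 and 90.9 in NUP98-NSD1 and 1349 in MLL-ENL, against 3983, 3050 and 1720 in HoxA9 (log2 -2.53, SE 0.36, adjusted p = 0.0016), with an adjusted p of 0.057 in HoxA9+Meis1 that was 0.044 without HoxA9 clone 3 or HoxA9+Meis1 clone 3 and 0.046 without NUP98-NSD1 clone 2 or 3.

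Which of the 7 arrays lay nearest to HoxA9 depends on how the genes were chosen. Among all separated genes it was 1 of the 3 HoxA9+Meis1 arrays for 343 of 624 higher (55.0%) and 428 of 708 lower genes (60.5%), and the single MLL-ENL array for 126 (20.2%) and 137 (19.4%). Held genes were chosen by a call in HoxA9+Meis1 against HoxA9, a choice that takes genes whose HoxA9+Meis1 arrays lie far from HoxA9. Among them MLL-ENL was nearest for 103 of the 281 higher (36.7%) and 80 of the 186 lower genes (43.0%), and nothing is read from these shares. Leaving out MLL-ENL, 835 genes were higher and 945 lower on the 6 arrays of HoxA9+Meis1 and NUP98-NSD1. For 181 of the held higher and 112 of the held lower genes the 7 arrays lay within 2-fold of each other, and for 22 and 18 they spread over more than 8-fold. The same choice bears on the following counts, which are descriptions. Among the held higher genes, 37 were called higher and 37 lower in NUP98-NSD1 than in HoxA9+Meis1, where 14.2% of all genes were called higher and 18.2% lower (32.4% in all). In MLL-ENL against HoxA9+Meis1, 28 were higher and 42 lower, where 9.34% and 12.3% of all genes were called (21.7% in all). In MLL-ENL against NUP98-NSD1, 7 were higher and 17 lower, where 1.82% and 2.98% were called (4.8% in all). Of the held lower genes, 34 were higher and 33 lower in the first of these comparisons, 37 and 6 in the second and 17 and 1 in the third. Against HoxA9, 13.3% of all genes were called higher and 18.2% lower in NUP98-NSD1 (31.5% in all), and 5.71% and 8.92% in MLL-ENL (14.6% in all).

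The order of arrays alone is a weak criterion near its edge. The gap between the nearest arrays of the 2 sides was under 0.1 log2 units for 606 of the 1332 separated genes and over 1 unit for 32 of them, of which 28 were held rises and 4 held falls. Ddias, just inside the limit, had 1627.52 on the lowest of the 7 arrays against 1627.5 on the highest HoxA9 array, and Susd4, just outside, had 156.639 against 156.647. A further kept probe set existed for 172 of the 281 held higher genes, and in HoxA9+Meis1 against HoxA9 it was called the same way in 72 and the opposite way in 0 of them. For the 186 held lower genes the numbers were 102, 44 and 0. Over the 7 arrays, 78 of the 172 had a further probe set called the same way and 8 the opposite way, and of 102 lower genes 54 and 0. Of the named held genes, Aff3, Calcrl, Ccnd1, Cd93, Ctsc, Ifi209, Irf5, Jun, Mcm2, Pknox1, Rps6, Runx3 and Sdc2 each had a further kept probe set that did not separate the 7 arrays from HoxA9.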

How the data were processed

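RNA of 10 cultures was read on Affymetrix Mouse Genome 430 2.0 arrays. The deposited table gives linear signal intensities, 1 for each of 45101 probe sets on every array, and the software that made them is not given in the sources used here. Each array's intensities share 1 trimmed mean. Here log2(signal + 32) was taken, and a probe set was kept where it passed the 40th percentile of all values (369.318) on at least 3 arrays. GEO's platform annotation gave 1 symbol for 34945 probe sets, several for 932 and none for 9160, and 34741 symbols were updated by gene ID. A gene is its kept probe set of highest mean. limma 3.58.1 in R 4.3.3 fitted 4 group means (eBayes with trend, 6 residual degrees of freedom), with two-sided Benjamini-Hochberg adjustment over 14233 genes. The single MLL-ENL array was assumed to vary like the clones. Named are the 12 largest and the 8 widest-gap held genes each way, the 6 largest that did not hold, up to 4 separated and called members of each list, and 11 genes always given. Of the 12 largest falls, 1 is not reported here. The members and lists were chosen with earlier results of these data known. Deviations from group means correlated at -0.07 to 0.04 for the same clone number and at -0.06 to 0.07 for different numbers. Samples were treated as unpaired, although such correlations cannot exclude a shared origin of clones with the same number. The fit was tested on simulated data. The number of arrays limits the precision. Figures used Python 3.11.15 and matplotlib 3.10.9.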

Additional observations from a re-analysis of the deposited data

Results flagged for a closer look

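The difference from HoxA9 itself differed between oncogenes for several of the named held genes, by limma's contrast between them at an adjusted p under 0.05. NUP98-NSD1 minus HoxA9+Meis1, on the log2 scale, was 4.6 for Nkg7, 3.144 for Chst13, 2.87 for Rnf128, 2.61 for Ltb4r1, 2.109 for Slc36a4 and 2.027 for Thbs1, and it was -2.332 for Sdc2, -2.147 for Slc13a2 and -1.502 for Ifi209. In this contrast the hybridization controls differ between the groups, and their part was not tested. MLL-ENL minus NUP98-NSD1, 2 groups with like hybridization controls, was -5.324 for Nkg7, -4.198 for Aff3, -3.296 for Ell2, -3.212 for Calcrl and -2.369 for Erg, and 4.037 for Slc36a4, 3.443 for Tgfbr3 and 2.77 for Sdc2. MLL-ENL is 1 array in each of these.

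Outside the named genes, 5486 kept probe sets had several symbols or none. Of these, 203 were higher and 179 lower on all 7 arrays than on any HoxA9 array, where 4.38% and 4.97% of the 14233 genes were. Of them, 53 and 21 were also called in both comparisons, where 1.97% and 1.31% of the 14233 genes were held.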

How the results depend on the processing

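The counts were 624 separated higher, 708 separated lower, 1198 called higher, 1378 called lower, and 283 higher and 194 lower that were also called in HoxA9+Meis1. With every probe set alone they became 1204, 1365, 2169, 2419 and, for the higher genes also called in HoxA9+Meis1, 457. With a common median, separated lower was 204, called lower 368 and lower also called 35. With 2 groups and 8 residual degrees of freedom, which puts the differences between oncogenes into the error, 104 genes were called higher and 35 lower. eBayes without trend left 167 higher and 121 lower also called. Leaving out 1 array gave 643 to 907 separated higher, 762 to 1193 separated lower (1193 and 1071 without HoxA9 clone 1 or 3), 712 to 1323 called higher (712 without HoxA9 clone 2), 528 to 1568 called lower (774, 528 and 653 without HoxA9 clone 1, 2 or 3), 177 to 380 higher also called (187 and 177 without HoxA9+Meis1 clone 1 or 2) and 114 to 297 lower also called (118 without HoxA9 clone 2, 121 and 114 without HoxA9+Meis1 clone 1 or 2, 297 without MLL-ENL). Leaving out 1 array cannot lower the separated counts, because the same genes are then compared on fewer arrays. The genes also called are counted among these separated genes. For the remaining changes the cause was not tested where it is not named. With clone number as a replicate block and MLL-ENL left out, 977 genes were called higher and 985 lower in the remaining 6 arrays than in HoxA9. Among genes separated on these 6 arrays, a looser rule than separation on 7, 340 higher and 257 lower were also called in HoxA9+Meis1. No count moved by over 1.5 times, although the sets of arrays differ.

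For the 53 named held genes, 1224 of 1267 values over the 7 arrays and 1154 of 1214 in HoxA9+Meis1 kept their direction and call, 42 and 60 lost the call (24 of the 42 in the fit of 2 groups), and 1 turned: Calcrl was -0.188 without the suffixed probe sets. Other named genes turned over the 7 arrays as follows: Hoxa10 -0.245 without suffixed probe sets, Hoxa5 0.0424 with a common median, 0.379 with the mean of probe sets and 0.88 without suffixed ones, Hoxa9 2.06 with the mean of probe sets, Mpo -0.00889 with quantile normalization, and Sox4 -0.0158 with equal weight for the oncogenes. Meis1 was 0.0313 with quantile normalization, 0.0412 with a common median, 4.35 with an offset of 100, 5.46 with a filter at the 60th percentile and 1.70 with the mean of probe sets, where another probe set or a mean stands for the gene in the last 3. Myb was 0.154 with a common median, 0.0067 with the replicate block and -0.0373 to 0.0118 when 1 array was left out (above 0 without HoxA9 clone 1, HoxA9+Meis1 clone 1 or 2, or MLL-ENL). In HoxA9+Meis1, Hoxa5 was -0.633 with the mean of probe sets, -1.31 without suffixed ones and -0.0217 to 0.0818 when 1 array was left out (below 0 without HoxA9 clone 2 or HoxA9+Meis1 clone 1), Hoxa7 -0.0572 to 0.0936 (below 0 without HoxA9 or HoxA9+Meis1 clone 3), Kit -0.0416 to 0.154 (below 0 without HoxA9 clone 3), and Mpo -0.0165 with quantile normalization. Meis1 was 2.53 with an offset of 100, 3.57 with the 60th percentile filter, 1.07 with the mean of probe sets and -0.32 to 0.016 when 1 array was left out (above 0 without HoxA9+Meis1 clone 3).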

Other observations

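Some genes passed the test in both comparisons without separating the 7 arrays from the 3, and these are named after their values were seen. Ly86, also known as MD-1, a partner of the toll-like receptor homologue Cd180, differed by 6.82 on the log2 scale in HoxA9+Meis1 against HoxA9 (adjusted p = 4.9e-05). Ifitm1, an interferon-induced membrane protein, differed by 5.81 (adjusted p = 0.0011), Cd27 by 4.53 (adjusted p = 0.0017) and Tspan13, a tetraspanin, by 3.498 (adjusted p = 0.0027) in the same comparison.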
